A study of Mus musculus with 9 samples.

Results

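The genes described here are 10 genes of the unfolded protein response, Hspa5, Hsp90b1, Ddit3, Atf4, Atf6, Xbp1, Herpud1, Dnajb9, Trib3 and Creld2. They were taken by their symbols from the deposited table of gene counts, where they are 10 of 22851 genes. RNA of mouse heart was sequenced in 9 libraries, 3 in each of 3 groups of male C57BL/6 mice (C57BL/6J in the study's methods) aged 6 to 8 weeks at the start. The control check group (CK) received citrate buffer, the diabetic cardiomyopathy group (DCM) received 1 injection of streptozotocin at 180 mg/kg in the same buffer and was kept on normal diet for 12 weeks, and the spermine group (SPM) received that streptozotocin as well as spermine. Streptozotocin kills the insulin-producing cells of the pancreas and so leaves the animals with a model of type 1 diabetes. Spermine, a polyamine, was given at 1 mg/kg, daily over the 2 weeks that led up to the toxin and on alternate days over the 12 weeks that followed. There was no group with spermine alone, so spermine was studied only in diabetic mice, and DCM and SPM share the toxin. The study's methods give 3 mice per group in one place and mixed samples of 6 hearts in another, so p-values measure the spread between libraries, whatever each library holds.

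Proteins that enter the endoplasmic reticulum (ER) to be folded are held there by chaperones, and the unfolded protein response adjusts that machinery when folding falls behind. Sensors in the ER membrane start it. ATF6 is cut to release a transcription factor, IRE1 splices the mRNA of Xbp1, and PERK slows translation while ATF4 is made, which in turn raises Ddit3 (CHOP) and Trib3. The heart uses the ER and the sarcoplasmic reticulum that is continuous with it for secreted and membrane proteins and for calcium storage. Splicing of Xbp1, cutting of ATF6 and translation of ATF4 leave no trace in a count per gene, so only the RNA amount of the 10 genes was compared.

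The tissue label was checked first, because the extraction protocol given with the libraries speaks of retinas while the tissue label names the heart. All 6 cardiomyocyte markers found were above 1 normalized CPM (counts scaled to library size) in all 9 libraries. The 6 retinal markers, rhodopsin among them, summed to at most 0.797 CPM. The libraries held 29901300 to 39718680 counts, and the mitochondrial share of counts was 13.7% to 16.2% in CK, reached 15.5% to 18.9% in DCM and lay at 21.01% to 21.09% in SPM. SPM replicate 2 stood apart. It lay between the other 2 SPM libraries for 68.6% of genes, against 14.6% to 40.8% for any other library within its group. Of 2656 genes without a count in SPM replicates 1 and 3, only 30 (1.13%) had one in SPM replicate 2, against at least 15.6% for any other library. Each result of the 10 genes that passed in SPM is therefore also given without this library. Whether it is independent of the other 2 SPM libraries was not tested, and SPM means and SD include it.

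Elements through which the response is known to act were looked for in the RefSeq promoters of build GRCm38.p6, 250 bases before to 50 after the start of each gene, which 9 of the 10 genes had. The sequences below are the 250 bases before the start for the 4 genes with a match there. They are shown because Hsp90b1 rose in SPM while Hspa5 and Creld2, which hold the same element, did not pass the test. Capitals mark the matches, and each sequence runs 5′ to 3′ on the strand of its gene. Hspa5 lies at chr2:34771840-34772089 (plus strand), Hsp90b1 at chr10:86705445-86705694 (minus strand), Creld2 at chr15:88819396-88819645 (plus strand) and Herpud1 at chr8:94386179-94386428 (plus strand).
Hspa5: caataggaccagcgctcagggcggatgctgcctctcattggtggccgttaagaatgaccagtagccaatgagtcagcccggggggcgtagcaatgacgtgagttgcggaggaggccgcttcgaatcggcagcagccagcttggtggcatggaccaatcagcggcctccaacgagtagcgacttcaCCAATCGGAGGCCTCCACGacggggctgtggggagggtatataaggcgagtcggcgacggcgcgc
Hsp90b1: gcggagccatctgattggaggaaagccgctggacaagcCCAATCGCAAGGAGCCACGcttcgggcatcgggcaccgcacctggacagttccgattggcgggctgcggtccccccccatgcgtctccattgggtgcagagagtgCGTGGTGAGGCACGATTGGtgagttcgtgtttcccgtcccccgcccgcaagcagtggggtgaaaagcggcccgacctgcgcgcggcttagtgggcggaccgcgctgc
Creld2: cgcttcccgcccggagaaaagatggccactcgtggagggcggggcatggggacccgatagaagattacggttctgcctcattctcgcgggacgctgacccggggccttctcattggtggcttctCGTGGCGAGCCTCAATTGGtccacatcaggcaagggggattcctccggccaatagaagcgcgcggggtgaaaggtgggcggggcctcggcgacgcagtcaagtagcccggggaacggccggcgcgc
Herpud1: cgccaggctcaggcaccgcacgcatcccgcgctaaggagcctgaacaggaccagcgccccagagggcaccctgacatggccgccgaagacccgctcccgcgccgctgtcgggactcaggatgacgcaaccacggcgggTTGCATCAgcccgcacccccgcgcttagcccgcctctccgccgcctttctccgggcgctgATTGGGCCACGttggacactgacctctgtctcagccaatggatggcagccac

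The ER stress response element (ERSE, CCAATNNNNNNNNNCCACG) was searched on both strands, as were ERSE-II (ATTGGNCCACG), the unfolded protein response element (UPRE, TGACGTGG) and the element bound by ATF4 and its partners (CARE, TGATGNAA). ERSE and ERSE-II share the letters CCACG, and no base of the matches above was shared by 2 of them. ERSE was found in 39 of 32851 promoters (0.119%), among them Hspa5 (bases -65 to -47 from the start), Creld2 (-126 to -108) and Hsp90b1, which had 2 matches (-212 to -194 and -107 to -89). ERSE-II was found in 12 promoters (0.0365%), among them that of Herpud1 (-52 to -42). CARE was found in 1304 promoters (3.97%), including those of Herpud1 (-112 to -105) and, past the start, Trib3 (15 to 22). UPRE was found in 222 promoters (0.676%) and in no promoter of the 10 genes. A match describes letters, not binding, and the lack of one says only that these letters are not in the window.

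All 10 genes were detected in every library and passed the filter on low counts in all 3 comparisons. The fewest counts behind any value were 111, for Trib3 in CK replicate 3, and the most were 11177, for Hspa5 in CK replicate 2. On the scale of FPKM, which divides by gene length and so allows genes to be compared, Herpud1 was the most abundant, with 101 ± 9.30 in CK, 138 ± 16.7 in DCM and 128 ± 19.2 in SPM (mean ± SD, n = 3). Hspa5 came next with 88.5 ± 10.6, 72.6 ± 11.2 and 85.8 ± 7.15 FPKM. FPKM lacks the further scaling factor of each library (TMM) that CPM has, so groups are compared by CPM. That factor was 1.031 to 1.055 in CK and 0.9668 to 1.002 in the other groups. In CPM, Hspa5 averaged 311 in CK and 323 in SPM, the reverse of its order in FPKM. The libraries of Herpud1 and Hspa5 overlapped in FPKM in CK but not in DCM or SPM. Atf4 and Xbp1 followed at group means of 35.7 to 45.4 FPKM, and overlapped each other in DCM and SPM. The order then ran through Hsp90b1, Atf6, Dnajb9, Creld2 and Ddit3 to Trib3, with means of 2.63 to 3.42 FPKM. Hsp90b1 and Atf6 overlapped in CK (20.2 ± 3.24 and 17.0 ± 0.524 FPKM) and in DCM, whereas in SPM Hsp90b1 stood clear of Atf6 (30.9 ± 0.302 and 18.6 ± 1.51). The lengths behind FPKM are those of the longest annotated transcript, which for Hsp90b1, Ddit3 and Atf4 retains an intron. How this shifts their FPKM depends on which exons were counted, which is not given.

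**Figure D1:**
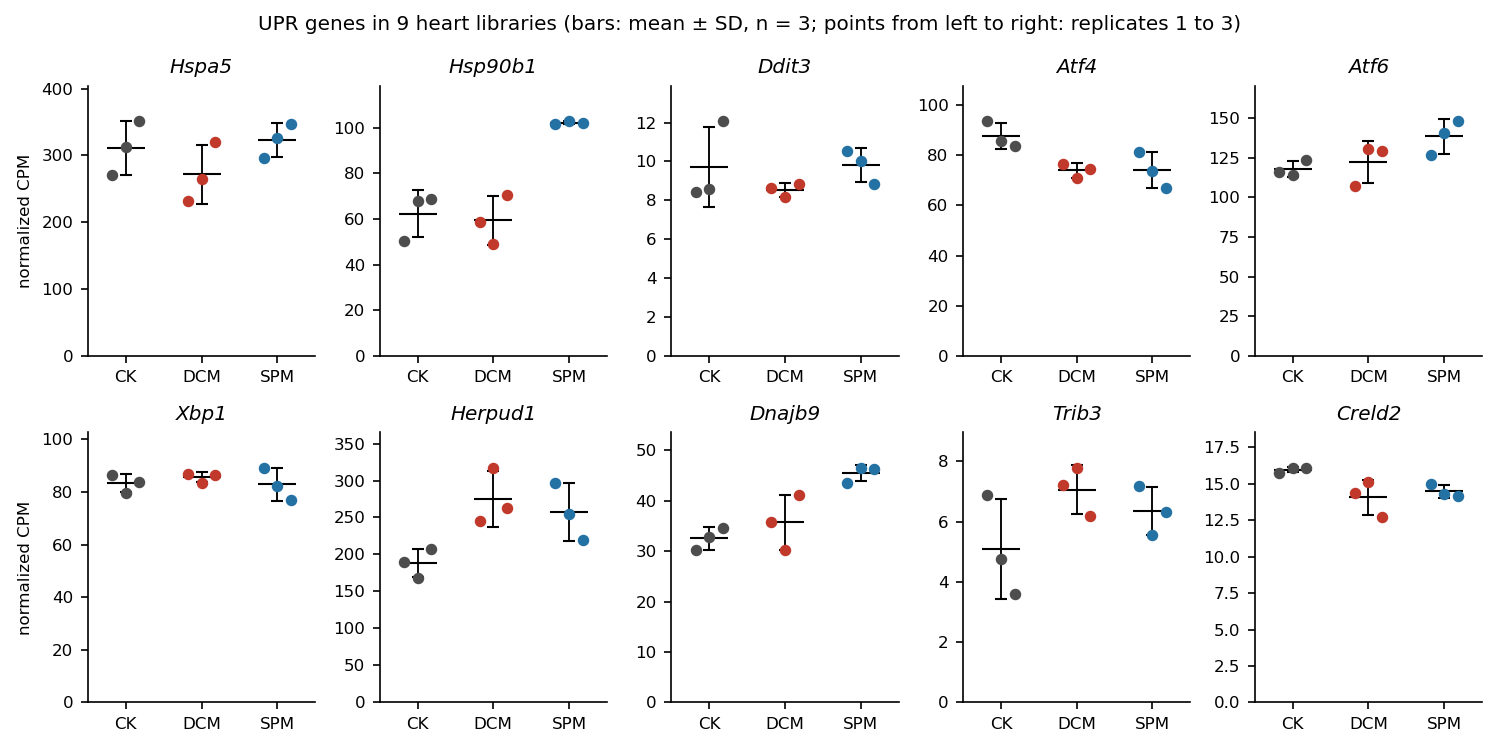
Normalized CPM (vertical axis, linear and from 0) of the 10 genes in the CK, DCM and SPM libraries; points are single libraries, replicates 1 to 3 from left to right, and bars give the mean ± SD (n = 3). The 3 SPM libraries of Hsp90b1 sit between 101 and 103, all above the CK and DCM libraries, and all 3 DCM libraries of Herpud1 sit above the CK libraries.

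Diabetic hearts were compared to control hearts to see whether the response is raised 12 weeks after streptozotocin. Herpud1 rose 1.46-fold, and the chaperone, sensor and death-linked genes of the set did not pass the test. A gene passed when its adjusted p (edgeR quasi-likelihood test, Benjamini-Hochberg over all tested genes) was below 0.05, and was called when its change was also at least 1.5-fold. No member was called and 1 of 10 passed. Over all 14402 genes tested, 4.34% were called and 10.4% passed, 5.28% as higher and 5.11% as lower in DCM. At an unadjusted p below 0.05 there were 3 members, Herpud1, Atf4 and Trib3, and neither DESeq2 nor limma called any. In 3 of the 10 genes the DCM and CK libraries did not overlap, against 29.3% of all genes. The median log2 fold change was -0.01 over the members and -0.002 over all genes.

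SPM hearts were compared to DCM hearts to see how diabetic hearts given spermine differed from those without it. The SPM libraries also differed as a set in mitochondrial share and in the GC trend given below. The part of either in these results was not tested. Hsp90b1 rose 1.72-fold and was the one member called, and Dnajb9 also passed, with a 1.27-fold rise. Across 14493 genes, 3.59% were called and 16.6% passed, 8.87% as higher and 7.76% as lower in SPM. Libraries did not overlap in 3 of 10 members (Hsp90b1, Dnajb9 and Ddit3), against 39.2% of all genes. The medians were 0.11 over the members and 0.006 over all genes.

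SPM hearts compared to CK hearts show where diabetic hearts given spermine stood against healthy ones. Hsp90b1 was called (1.63-fold higher), and Dnajb9, Herpud1 and Atf6 passed as higher. So 1 of 10 members was called and 4 passed, where 9.21% of 14574 genes were called and 27.4% passed (13% higher, 14.3% lower). In 6 members the libraries did not overlap, against 46.3% of all genes. The 3 comparisons share groups in pairs, so their values are set side by side and are not independent.

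**Figure D2:**
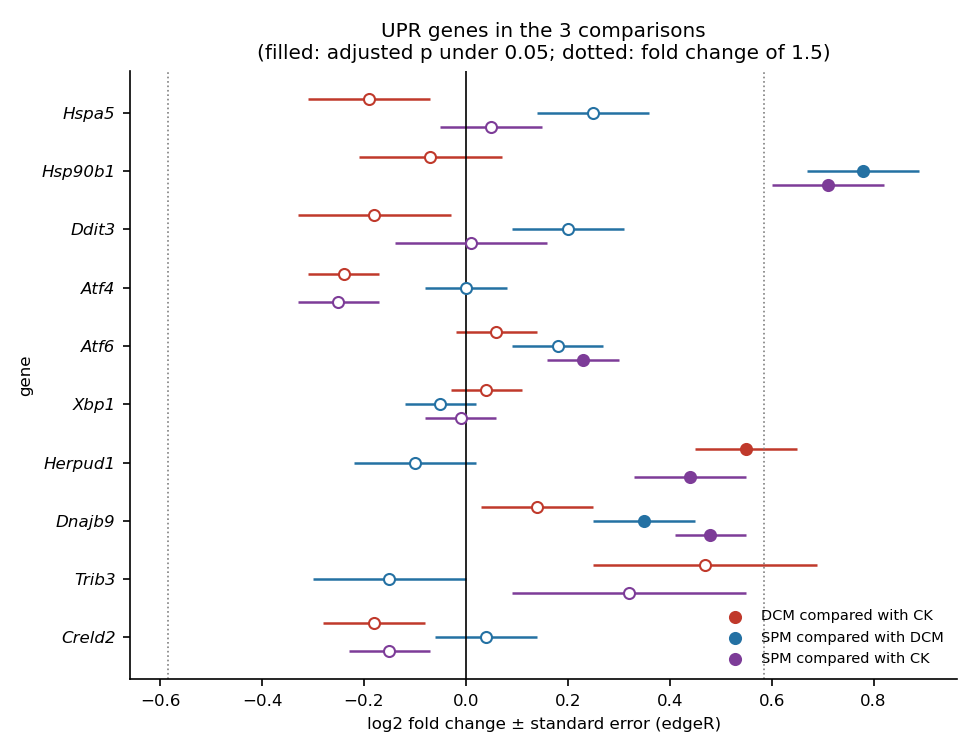
Log2 fold change (horizontal axis) of the 10 genes with its standard error in the 3 comparisons, from edgeR; filled points have an adjusted p below 0.05 and the dotted lines mark a 1.5-fold change. Hsp90b1 is the one gene past a dotted line, at 0.78 in SPM compared to DCM and 0.71 in SPM compared to CK, and Herpud1 comes close at 0.55 in DCM compared to CK.

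Hspa5 (ENSMUSG00000026864, chr2:34771970-34777547, GRCm38) codes for BiP, the main ER chaperone, which also holds the 3 sensors inactive. CK replicates 1 to 3 gave 271, 312 and 351 CPM, the DCM libraries 232, 264 and 320, and the SPM libraries 296, 326 and 347. The groups overlapped, and replicate 1 was the lowest and replicate 3 the highest in each. The change was -0.19 (SE 0.12, adjusted p = 0.347) in DCM compared to CK, 0.25 (SE 0.11, adjusted p = 0.141) in SPM compared to DCM and 0.05 (SE 0.10, adjusted p = 0.748) in SPM compared to CK, all as log2 fold changes. Single libraries moved the SPM difference from DCM from 0.14 (adjusted p = 0.4, edgeR) without DCM replicate 1 to 0.37 (adjusted p = 0.045) without DCM replicate 3.

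Hsp90b1 (ENSMUSG00000020048, chr10:86690209-86705509, minus strand), the ER member of the HSP90 family, also called GRP94, folds a limited set of clients that includes integrins, Toll-like receptors and insulin-like growth factors. The CK libraries gave 50.5, 67.8 and 68.7 CPM, those of DCM 58.7, 48.9 and 70.6, and those of SPM 101, 103 and 102. Every SPM library stood above every CK and DCM library, whereas CK and DCM overlapped. The log2 fold change was 0.78 (SE 0.11, adjusted p = 0.00813) in SPM compared to DCM and 0.71 (SE 0.11, adjusted p = 0.00332) in SPM compared to CK. Between DCM and CK it was -0.07 (SE 0.14, adjusted p = 0.818).

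The Hsp90b1 rise was as large without SPM replicate 2. It was then 0.78 (adjusted p = 0.029, edgeR) in SPM compared to DCM, a comparison in which 0.486% of all genes passed once that library was left out, and 0.71 (adjusted p = 0.0161) in SPM compared to CK, where 10.4% passed. The call against CK fell below the 1.5-fold limit without CK replicate 1, at 0.57 with an adjusted p of 0.00315. An annotated pseudogene on the opposite strand, 1810014B01Rik, shares 10.3% of the exon bases of Hsp90b1. Whether the counting used strand is not given in the sources used here, and this pseudogene was counted at 5.11 to 7.94 CPM in all 9 libraries, with SPM values of 5.11, 6.85 and 6.77.

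Dnajb9 (ENSMUSG00000014905, chr12:44205559-44210326, minus strand) codes for ERdj4, a co-chaperone of BiP that is a target of XBP1 and helps return IRE1 to rest. Its CPM were 30.2, 32.8 and 34.7 in CK, 35.9, 30.2 and 41.1 in DCM and 43.6, 46.6 and 46.2 in SPM. All 3 SPM libraries were above all others, and DCM and CK overlapped. It rose by 0.35 on the log2 scale (SE 0.10, adjusted p = 0.0419) in SPM compared to DCM and by 0.48 (SE 0.07, adjusted p = 0.00291) in SPM compared to CK, and was 0.14 (adjusted p = 0.486) in DCM compared to CK. The first of these did not pass without any 1 of DCM replicates 1 and 2 or SPM replicates 2 and 3, with adjusted p of 0.0601 to 0.15, and was 0.33 (adjusted p = 0.15) without SPM replicate 2. The rise over CK passed without each library in turn, and was 0.46 (adjusted p = 0.0222) without SPM replicate 2.

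Creld2 (ENSMUSG00000023272, chr15:88819646-88826683), a secreted ER protein with isomerase activity, carries an ERSE match as Hspa5 and Hsp90b1 do. Its CPM were 15.8, 16.1 and 16.1 in CK, 14.4, 15.1 and 12.8 in DCM and 15.0, 14.3 and 14.1 in SPM. CK lay above both diabetic groups without overlap, by less than 1 CPM between the nearest libraries, and no comparison passed. The log2 fold changes were -0.18 (SE 0.10, adjusted p = 0.311) in DCM and -0.15 (SE 0.08, adjusted p = 0.177) in SPM, both compared to CK. SPM differed from DCM by 0.04 (adjusted p = 0.795).

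Herpud1 (ENSMUSG00000031770, chr8:94386438-94395377) codes for HERP, an ER membrane protein of the complex that sends misfolded proteins to the proteasome. CK libraries gave 190, 168 and 207 CPM, DCM libraries 245, 317 and 263 CPM and SPM libraries 297, 255 and 219 CPM. Every DCM and SPM library exceeded every CK library, and DCM and SPM overlapped. The rise in DCM compared to CK was 0.55 (SE 0.10, adjusted p = 0.00546, edgeR), just under the 1.5-fold limit. It passed without each library in turn, at 0.43 to 0.63, and crossed the limit without CK replicate 3 (0.62), DCM replicate 1 (0.63) or DCM replicate 3 (0.59).

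Herpud1 in SPM differed from DCM by -0.10 (SE 0.12, adjusted p = 0.597). Compared to CK it was higher in SPM by 0.44 (SE 0.11, adjusted p = 0.0216), a result that did not pass without CK replicate 1 (adjusted p = 0.0691), CK replicate 2 (0.0829) or SPM replicate 2 (0.45, adjusted p = 0.0646). The ratio of Herpud1 to Hspa5 FPKM within a library was 1.02 to 1.32 (CK), 1.55 to 2.26 (DCM) and 1.19 to 1.89 (SPM). DCM stood above CK without overlap (two-sided exact permutation test, p = 0.1, the smallest that 3 against 3 libraries can give).

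The same kind of ratio was taken for the paired chaperones. Hsp90b1 to Hspa5 was 0.213 to 0.248 (CK), 0.211 to 0.289 (DCM) and 0.336 to 0.391 (SPM). SPM lay above both other groups, with an exact permutation p of 0.1 in each case and of 0.5 for DCM compared to CK. Dnajb9 to Hspa5 was 0.147 to 0.166 (CK), 0.17 to 0.231 (DCM) and 0.198 to 0.22 (SPM). Here CK lay below both diabetic groups (exact permutation p = 0.1 each), and SPM and DCM overlapped (p = 0.6, exact permutation test). These ratios carry no correction for GC content, which was 42.1% for Hsp90b1, 40.6% for Dnajb9 and 45.6% for Hspa5. Changes in SPM ran with GC content over all genes, as given below, and its part in the ratios was not tested. The ratio tests with SPM include SPM replicate 2 and were not repeated without it.

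Atf4 (ENSMUSG00000042406, chr15:80255184-80257541), the transcription factor made when PERK or a related kinase slows translation, gave 93.6, 85.5 and 83.8 CPM in CK, 76.7, 70.7 and 74.6 in DCM and 81.4, 73.5 and 67.0 in SPM. Every CK library was above every library of the diabetic groups, and DCM and SPM overlapped. The log2 fold change was -0.24 (SE 0.07, adjusted p = 0.0541) in DCM and -0.25 (SE 0.08, adjusted p = 0.0503) in SPM, both compared to CK and both just short of passing. In DCM compared to CK, DESeq2 gave an adjusted p of 0.0396. There limma on log2 of FPKM plus 0.1 gave -0.33 (adjusted p = 0.0203), with all genes at a median of -0.09. In the same comparison Atf4 passed in no edgeR fit that left out a library, with adjusted p of 0.071 to 0.16. In SPM compared to CK, DESeq2 and limma gave adjusted p of 0.0294 and 0.0166, the latter with all genes at a median of -0.08. A fit with an offset for the GC content of transcripts gave -0.12 in SPM compared to CK (adjusted p = 0.287, edgeR). Leaving out each library in turn gave adjusted p of 0.0202 to 0.165 there. Without SPM replicate 2 the value was -0.24 (adjusted p = 0.165), and SPM compared to DCM was 0 (SE 0.08, adjusted p = 0.992).

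Ddit3 (ENSMUSG00000025408, chr10:127290774-127296288), which codes for CHOP, a factor tied to cell death under lasting ER stress, was a gene of low level. It gave 8.45, 8.60 and 12.1 CPM in CK, 8.65, 8.16 and 8.85 in DCM and 10.5, 10.04 and 8.85 in SPM. CK replicate 3 was the highest library, and the SPM libraries lay above the DCM libraries with the nearest pair at 8.855 and 8.852 CPM. The log2 fold change was -0.18 (SE 0.15, adjusted p = 0.525) in DCM compared to CK and 0.20 (SE 0.11, adjusted p = 0.236) in SPM compared to DCM. Exons of Mars on the opposite strand share 3.97% of its exon bases.

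Trib3 (ENSMUSG00000032715, chr2:152337422-152344032, minus strand), a pseudokinase gene induced by ATF4 and CHOP that can bind AKT, was the least abundant member. Its CPM were 6.89, 4.77 and 3.601 in CK, 7.21, 7.79 and 6.18 in DCM and 7.17, 5.57 and 6.32 in SPM. CK replicate 1 lay among the diabetic libraries, and the other 2 CK libraries lay below all of them. In DCM compared to CK the log2 fold change was 0.47 (SE 0.22, adjusted p = 0.198), and single libraries moved it from 0.28 (adjusted p = 0.47, edgeR) without CK replicate 3 to 0.75 (adjusted p = 0.025) without CK replicate 1. SPM differed from DCM by -0.15 (SE 0.15, adjusted p = 0.494) and from CK by 0.32 (SE 0.23, adjusted p = 0.325).

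Atf6 (ENSMUSG00000026663, chr1:170704674-170867771, minus strand), the sensor that is cut to become a transcription factor, gave 116, 114 and 123 CPM in CK, 107, 130 and 129 in DCM and 127, 141 and 148 in SPM. SPM lay above CK without overlap, and DCM replicate 1 was the lowest of all. The rise in SPM compared to CK was 0.23 (SE 0.07, adjusted p = 0.0432), and it passed in only 1 of the 6 fits that each left out a library, that without SPM replicate 1. Without SPM replicate 2 it was 0.22 (adjusted p = 0.159). The differences were 0.06 (adjusted p = 0.749) in DCM compared to CK and 0.18 (adjusted p = 0.192) in SPM compared to DCM.

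Xbp1 (ENSMUSG00000020484, chr11:5520659-5525893), the transcription factor gene whose mRNA IRE1 splices, passed in no comparison. Its CPM were 86.3, 79.7 and 83.9 in CK, 86.8, 83.6 and 86.6 in DCM and 89.2, 82.4 and 77.0 in SPM. The groups overlapped throughout. The log2 fold changes were 0.04, -0.05 and -0.01 in the 3 comparisons, with SE of 0.07 each and adjusted p of 0.776, 0.661 and 0.905.

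In SPM compared to either other group, log2 fold changes ran with the GC content of transcripts over all genes, so the values of the members are given beside that trend. Spearman's rho of log2 fold change with GC content across genes was -0.502 in SPM compared to DCM, -0.366 in SPM compared to CK and 0.06 in DCM compared to CK. Genes are not independent replicates, so these are descriptions. The median change in SPM compared to DCM was 0.23 for genes of 40 to 45% GC, where Hsp90b1 (42.1%) and Dnajb9 (40.6%) lie, and -0.08 for genes of 50 to 55% GC, where Herpud1 (53.0%), Xbp1 (53.0%) and Creld2 (54.8%) lie.

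When each library's trend on GC content entered the fit as an offset, Hsp90b1 still rose, by 0.54 (adjusted p = 0.0222) in SPM compared to DCM and by 0.50 (adjusted p = 0.00265) in SPM compared to CK, under the 1.5-fold limit in both. Dnajb9 was then 0.06 (adjusted p = 0.654) in SPM compared to DCM and 0.21 (adjusted p = 0.0436) in SPM compared to CK. Atf6 was 0.15 (adjusted p = 0.162) in SPM compared to CK. Herpud1 in DCM compared to CK stayed at 0.54 (adjusted p = 0.00293). Using the GC content of the longest coding transcript instead, 43.8% for Hsp90b1, gave 0.58 (adjusted p = 0.0242) for Hsp90b1 in SPM compared to DCM, and 0.17 (adjusted p = 0.0834) for Dnajb9 in SPM compared to CK.

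**Figure D3:**
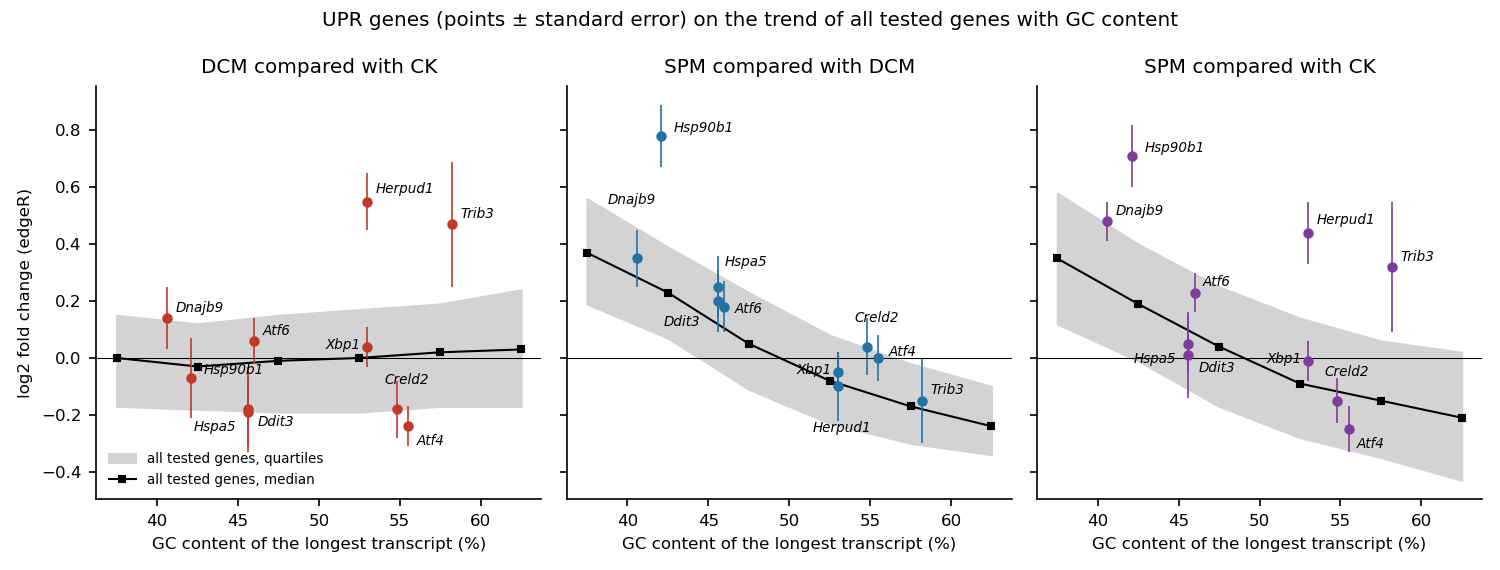
Log2 fold change from edgeR (vertical axis) against the GC content of the longest transcript (horizontal axis, %) in the 3 comparisons; points are the 10 genes with their standard errors, and the line and band are the median and quartiles of all tested genes in steps of 5% GC. In SPM compared to DCM, Dnajb9 lies within the band and Hsp90b1 lies above it. Ddit3 is drawn at 45.6% GC by a transcript that retains an intron, and its longest coding transcript has 55.4%. In SPM compared to DCM the median was 0.05 for genes of 45 to 50% GC and -0.17 for those of 55 to 60%.

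The other genes of the pathway were taken as 5 lists, and each is given with its count and median. Over all genes tested, 5.28% passed as higher and 5.11% as lower in DCM compared to CK (median -0.002), 8.87% and 7.76% in SPM compared to DCM (median 0.006), and 13% and 14.3% in SPM compared to CK (median 0.002). Among 20 ER chaperones and folding enzymes, 6 passed in DCM compared to CK, all lower, where 5.11% of all genes did, with a list median of -0.12. These were Sdf2l1, Pdia4, Hyou1, Calr, Pdia6 and Pdia3, and they are foldases, calcium-binding chaperones of glycoproteins and helpers of BiP. Sdf2l1, a BiP-bound cofactor of folding and degradation, fell the furthest, by 0.70 (SE 0.16, adjusted p = 0.0138). It gave 8.10, 6.39 and 7.85 CPM in CK, 4.55, 4.61 and 4.57 in DCM and 6.71, 5.28 and 3.78 in SPM. CK lay above DCM without overlap, and SPM spread across both. Leaving out each library in turn left 4 to 7 of the 20 genes lower.

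Of the 20 chaperones, 5 passed in SPM compared to DCM, all higher, where 8.87% of all genes did, with a median of 0.18. They were Pdia3 (0.40), Canx (0.34), Dnajc3 (0.24), Dnajc10 (0.24) and Calr (0.23), each under the 1.5-fold limit. Calr, the calcium-binding chaperone calreticulin, gave 263, 266 and 269 CPM in CK, 209, 198 and 210 in DCM and 246, 238 and 241 in SPM. The 3 groups of Calr did not overlap, with SPM between the other groups. The count was 0 without DCM replicate 2 or SPM replicate 2 and 1 without DCM replicate 1, while the median stayed at 0.12 to 0.21. With the GC offset 2 passed, and the median was 0.10. Against CK, 3 passed as higher and 2 as lower in SPM, with a median of -0.11.

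Calr, Canx, Pdia6 and Dnajc3 carry ERSE in their promoters, as do Ero1b of the same list and Syvn1 and Derl3 of the degradation list. Over all genes with ERSE, 15 to 17 were tested. Of these, 5 passed as higher and 2 as lower in SPM compared to DCM (median 0.08), where all genes gave 8.87% and 7.76% with a median of 0.006. In DCM compared to CK, 1 passed as higher and 2 as lower (median -0.06). These counts are of the main fit and are not separate results. In SPM compared to DCM, Hsp90b1, Calr, Canx and Dnajc3 were among the 5 higher genes and Syvn1 among the 2 lower. Each of them is also counted with the members or the lists. Without SPM replicate 2, Calr, Canx, Dnajc3 and Syvn1 did not pass in SPM compared to DCM by edgeR, while Hsp90b1 did. The count of genes with ERSE was not repeated in that fit.

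Among genes of ER-associated degradation, 1 of 18 passed in DCM compared to CK, Ube2g2, a ubiquitin-conjugating enzyme that rose by 0.35 (SE 0.07, adjusted p = 0.00747), and the list median was 0.01. Of 19 genes, 1 in SPM compared to DCM passed as higher and 3 as lower (median -0.02), Ube2g2 among the latter at -0.22 (adjusted p = 0.0409). Its CPM were 77.2 to 85.0 (CK), 99.8 to 106 (DCM) and 87.2 to 90.4 (SPM), with no overlap between any groups. Vcp, the ATPase that pulls proteins from the ER, was at 0.03 (adjusted p = 0.893) in DCM compared to CK and at -0.13 (adjusted p = 0.29) in SPM compared to DCM, and did not pass. With either GC offset, or without SPM replicate 2, none of the 19 passed in SPM compared to DCM by edgeR, Ube2g2 included.

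Among 19 tested sensors and regulators, 1 passed as lower in DCM compared to CK and 2 in each direction in SPM compared to DCM, with medians of -0.10 and -0.01. Wfs1, an ER membrane protein that restrains ATF6 and whose loss causes diabetes, was lower in SPM by 0.33 than in DCM (adjusted p = 0.0454) and by 0.43 than in CK (adjusted p = 0.013). Tmbim6, an inhibitor of cell death in the ER membrane, and Ppp1r15a, the GADD34 subunit that restores translation, were at -0.16 (adjusted p = 0.119) and -0.27 (adjusted p = 0.122) in SPM compared to DCM. In DCM compared to CK these were at 0.03 and 0.01. None of the list passed by edgeR in SPM compared to DCM with either GC offset, or without SPM replicate 2, where 0.486% of all genes passed.

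Targets of ATF4 and CHOP had the widest spread. In DCM compared to CK, 5 of 25 passed, all higher, though the list median was -0.04. They were Ddit4 (0.94, SE 0.19, adjusted p = 0.0071), Psat1 (0.88, SE 0.17, adjusted p = 0.00614), Eif4ebp1 (0.61, SE 0.08, adjusted p = 0.000477), Slc3a2 (0.47) and Stc2 (0.33). Either GC offset, or no filter on low counts, gave 5 as higher and 2 as lower, and limma gave 4 and 1. Without each library in turn, 4 to 5 passed as higher and 0 to 1 as lower. Gdf15 was lower by 0.87 (adjusted p = 0.0645, edgeR), with DCM below CK without overlap, and did not pass. Ddit4 and Eif4ebp1 code for brakes on mTOR signalling and translation, Psat1 for an enzyme of serine synthesis, Slc3a2 for an amino acid transporter chain and Stc2 for a secreted glycoprotein. Ddit4 gave 91.4, 129 and 162 CPM in CK and 193, 304 and 236 in DCM, and every DCM library was above every CK library. Asns and Chac1, usual markers of ATF4 activity that were picked out after their values were seen, did not pass and were at 2.81 ± 0.54 and 3.14 ± 1.00 CPM in DCM, against 2.90 ± 0.30 and 4.97 ± 1.45 in CK (mean ± SD, n = 3).

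Of 26 such targets, 3 passed in SPM compared to DCM, all lower (median -0.04). Eif4ebp1 was lower by 0.36 (adjusted p = 0.0428), with SPM at 207, 175 and 155 CPM, below DCM at 225, 250 and 214. Cebpb, a transcription factor and the one gene of the list called here, was lower by 1.01 (SE 0.31, adjusted p = 0.049), on levels of 1.09 to 3.73 CPM. For Ddit4 and Psat1 the change was -0.11 (adjusted p = 0.619) and 0.06 (adjusted p = 0.698). None of the 26, Eif4ebp1 and Cebpb included, passed by edgeR without SPM replicate 2 or with either GC offset, under which the list median was 0.05.

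In the list of the translocon and signal peptide processing, 2 of 24 passed as lower in DCM compared to CK and 6 of 24 as higher in SPM compared to DCM (medians -0.04 and 0.06), where 5.11% and 8.87% of all genes did. The first count was 0 to 1 without each library in turn. With the GC offset 1 of 24 passed as higher, and without SPM replicate 2 none did by edgeR. Ssr3, a subunit of the translocon-associated complex, was higher in SPM by 0.39 (SE 0.07, adjusted p = 0.0136). Srpr, which receives ribosomes at the ER, and Spcs1, of the signal peptidase, were at -0.08 (adjusted p = 0.38) and 0.06 (adjusted p = 0.592).

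**Figure D4:**
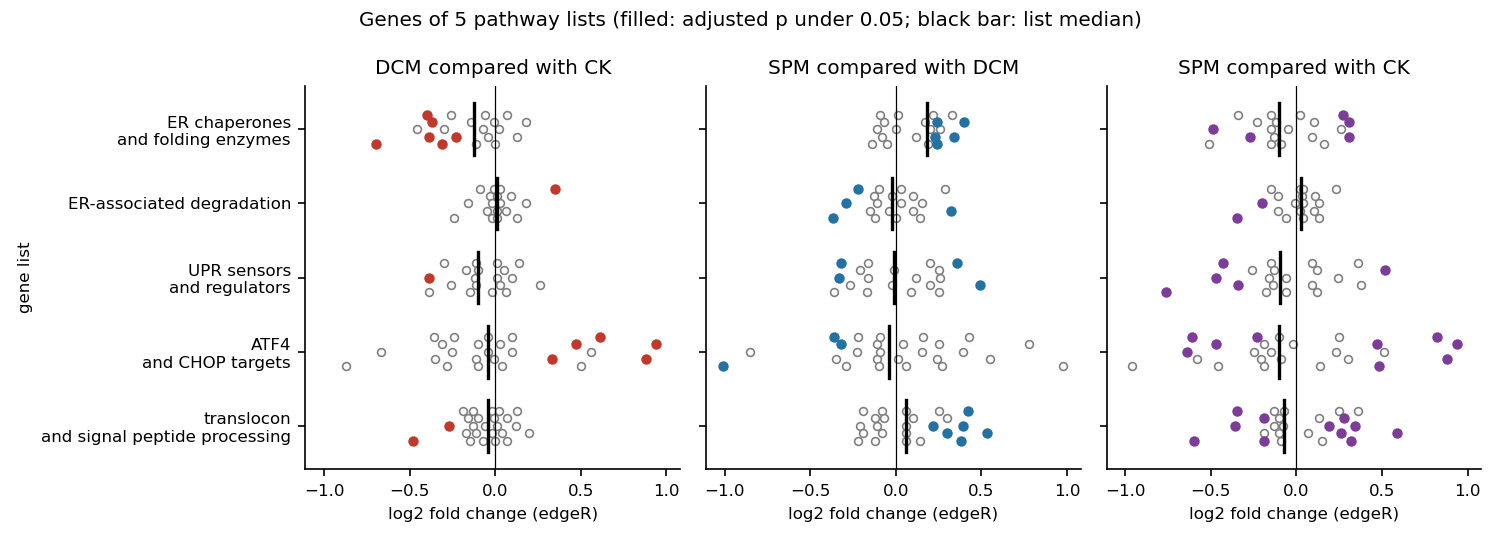
Log2 fold change from edgeR (horizontal axis) of the tested genes of 5 pathway lists in the 3 comparisons; each point is a gene, filled where its adjusted p is below 0.05, and the black bar is the list median. All 6 filled chaperones lie below 0 in DCM compared to CK and all 5 lie above 0 in SPM compared to DCM, while the filled ATF4 and CHOP targets lie above 0 in the first and below 0 in the second. Only Calr and Pdia3 of the chaperones and Eif4ebp1 of the targets are filled in both. These comparisons share the DCM libraries and are not independent.

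These are bulk libraries, in which fewer cells of a type and less RNA per cell cannot be told apart. Summed markers of several cell types differed between the groups. The 6 cardiomyocyte markers summed to 47200 to 52500 CPM in CK and 45700 to 52200 in DCM, and SPM lay below both at 39100 to 44600. That sum mixed genes of different course. Myh6 was at 22700 to 25800 CPM in CK and 14000 to 20300 in SPM. Tnnt2 was at 4840 to 5250 CPM in CK and 5560 to 6120 in SPM. The 6 endothelial markers summed to 1780 to 2040 (CK), 1660 to 1810 (DCM) and 1540 to 1690 (SPM), and the 7 markers of T and NK cells to 6.03 to 8.96, 2.57 to 4.80 and 4.36 to 6.16. The 8 neutrophil markers summed to 5.58 to 11.6 CPM in CK, with DCM at 12.7 to 28.9 and SPM at 30.7 to 61.7, the 8 macrophage markers to 730 to 963, 613 to 722 and 729 to 1230, and the 6 fibroblast markers found to 1970 to 2060, 1330 to 1420 and 1590 to 1650. The fibroblast sum also mixed genes of different course, since Col3a1 was at 483 to 506 CPM in CK and 157 to 188 in DCM. Dcn was at 751 to 862 and 747 to 795, and at 909 to 1080 in SPM. Pecam1 of the endothelial list was at 386 to 433 CPM in CK and 434 to 488 in DCM. Cd163 of the macrophage list was at 44.5 to 49.5 in CK and 62.5 to 65.1 in DCM. Both were higher in DCM although their sums were not. The 6 markers found of plasma and B cells, whose ER is large, summed to 29.5 to 67.2, 16.7 to 32.1 and 26.9 to 28.6 CPM. The part of these cells in the results was not tested. The 7 liver markers summed to 2.60 to 38.8 CPM in CK, at most 2.17 in DCM and 4.20 to 317 in SPM. Albumin alone gave 248, 113 and 0.293 CPM in SPM replicates 1 to 3, in which Hsp90b1 was at 101, 103 and 102 CPM and Dnajb9 at 43.6, 46.6 and 46.2 CPM.

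For Hspa5 and Trib3, the genes whose log2 CPM ran most closely with them over the 9 libraries were listed among 9995 genes. For Hspa5 these were Macf1 (Pearson's r = 0.964), Atp2c1 (0.96), Crot (0.959), Cmya5 (0.958) and Tnks2 (0.958). For Trib3 they were Iffo1 (0.961), Prag1 (0.933), Gm5884 (0.926), Pym1 (0.91) and Hes6 (0.903). Among the other members, the highest r with Hspa5 was that of Atf6 (0.649, rank 846 of 9995), followed by Hsp90b1 (0.626, rank 973). Trib3 was at -0.683. These values describe likeness only, since the 9 libraries share groups and depth.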

How the data were processed

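RNA of 9 mouse heart libraries had been sequenced after a TruSeq kit, per the labels, and reads were trimmed by the authors with fastp 0.18.0. The submitters' processing notes name Bowtie 0.12.2 and the builds mm8 and mm9 without saying what each was used for, and no source used here names the counting tool or its strand setting. The authors deposited raw counts per gene, which were tested, and FPKM, which equal the count divided by gene length and library total and were used for levels, ratios and the limma alternative. Libraries were grouped by their labels. Counts of the 6 libraries of each comparison were filtered (filterByExpr), scaled by TMM and tested with edgeR 4.0.16 (quasi-likelihood, two-sided, Benjamini-Hochberg over all tested genes) in R 4.3.3, after a test on simulated data. CPM are normalized by TMM over all 9 libraries. DESeq2 1.42.0, limma 3.58.1, other filters and scalings, GC offsets, the replicate block and leaving out each library were alternatives, and the GC offset on the longest coding transcript was chosen after seeing the data. Gene positions and transcripts are of GENCODE M21, promoters of RefSeq, and 31 of 22851 identifiers had no name. Ratios used an exact permutation test in scipy 1.17.1.

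The members and lists were chosen with earlier results of these data known. The text names all members, from each list the genes past both limits in DCM compared to CK or SPM compared to DCM (up to 5 each) or else its 3 most abundant genes, and the 5 genes most like Hspa5 and Trib3. One gene that this rule names is not reported here. Other genes of the lists were named after their values were seen. Counts carry counting error as well as the spread between libraries, and the least abundant value rests on 111 counts.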

Additional observations from a re-analysis of the deposited data

How the results depend on the processing

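Of 480 values of single members under the alternatives, 435 stayed on their side of the threshold, 20 newly passed, 25 no longer passed and 41 took the other sign, none of the 41 past the threshold under either setting. Members past both limits in DCM compared to CK numbered 0, and 1 with a 1.3-fold limit or none, and 0 to 1 without each library in turn. By adjusted p alone there was 1, and 2 (Herpud1 and Atf4) with DESeq2, no filter, a minimum of 1 CPM in 3 libraries, limma with either pseudocount or either GC offset, and 1 to 2 without each library. In SPM compared to DCM the 1 member past both limits became 0 with either GC offset and 2 with no fold limit, and stayed 1 without each library. The 2 by adjusted p became 1 with limma (either pseudocount) or either GC offset, and 1 to 3 without each library. In SPM compared to CK the 1 past both limits became 0 with either GC offset, 3 with a 1.3-fold limit and 4 with no limit, and 0 to 1 without each library. The 4 by adjusted p became 2 with the GC offset on coding transcripts, 3 with the other GC offset, 5 with DESeq2 (Atf4 added) and 2 to 5 without each library. limma also gave 4, but these were Hsp90b1 and Dnajb9 as higher and Atf4 and Creld2 as lower. Beyond the offsets' and limits' own construction, the cause was not tested.

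Libraries share replicate numbers, but the residuals of same-numbered libraries correlated at only -0.0746 to 0.205, so the numbers were not taken as pairs. With the replicate block, 3 members passed in SPM compared to DCM, Hspa5 (0.26, adjusted p = 0.0306) beside Hsp90b1 and Dnajb9, and 5 in SPM compared to CK. On FPKM, limma moved the median of all genes by -0.09 in DCM and -0.08 in SPM, both compared to CK.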
